A study of Mus musculus with 4 samples.

Results

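The muscle nicotinic acetylcholine receptor and the proteins that gather it under the motor nerve terminal were followed as 9 genes, chosen by symbol from the 23482 genes listed: the receptor subunit genes Chrna1, Chrnb1, Chrnd, Chrne and Chrng, and the organizer genes Musk, Rapsn, Lrp4 and Dok7. All 9 were found in the table. RNA came from quadriceps muscle of FVB/N mice aged 6 to 8 weeks. There were 2 libraries from non-transgenic control muscle and 2 from muscle overexpressing Thbs1, which encodes the secreted matricellular protein thrombospondin-1, and the comparison asks what that overexpression does to muscle transcripts. The promoter driving the transgene, the sex of the mice and whether each library is 1 animal are not given in the sources used here. Every p-value below therefore covers only the scatter between libraries, which could be technical.

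The receptor is a ring of subunits that opens a cation channel when acetylcholine binds, and so turns a nerve impulse into contraction. Agrin from the nerve binds LRP4, LRP4 activates the receptor tyrosine kinase MuSK with the help of the cytoplasmic adaptor DOK7, and rapsyn then anchors the receptors in dense clusters. In adult fibres the subunit genes are transcribed mainly in the nuclei under the synapse, electrical activity keeps them low elsewhere, and loss of the nerve is classically followed by their transcription along the whole fibre.

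The libraries held 18815221 to 20053685 reads in genes. Thbs1 stood at 8.61 and 12.2 RPKM (reads per kilobase of gene model, scaled to library depth) in the controls and at 12900 and 15411 RPKM in transgenic muscle, where it took 12.0% and 14.4% of the reads, which matches the labels. The tissue label fits its markers, with Acta1, the skeletal alpha-actin, between 6543 and 9027 RPKM in all 4 libraries. Of 10015 genes that reached 1 RPKM in at least 2 libraries, 626 were higher and 122 lower in transgenic muscle by limma with Benjamini-Hochberg adjustment at 0.05, that is 6.25% and 1.22%. The calls split into 501 higher and 247 lower with median-of-ratios scaling, and into 572 and 442 by limma-voom on recovered reads. Over all tested genes the median log2 fold change was 0.10. It moved to -0.04 with median-of-ratios scaling and to 0.26 with Thbs1 left out of the library totals.

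Transcripts of 4 receptor subunits, Chrna1, Chrnd, Chrne and Chrng, rose in transgenic muscle, and Chrnb1 and the 4 organizers did not pass the test. The 4 are to be read against the 6.25% of tested genes called higher. Chrnd and Chrng were below 1 RPKM in both controls and entered the test through their transgenic values alone, which favours a rise, so the count is given as an account of the members and not as support. Both transgenic libraries lay above both controls for 7 of the 9 genes, against 38.4% of the tested genes. In the same libraries the summed RPKM of fibre markers was lower, with 1 of 12 genes past the test, and that of macrophage markers higher, as described further on. In whole muscle, fewer cells of a type and less RNA per cell cannot be told apart. The sums were not corrected for the 12.0% and 14.4% of transgenic reads taken by Thbs1, which lower the RPKM of other genes.

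Chrna1 (gene ID 11435, chr2:73563215-73580338 on the reverse strand, positions here and below from GENCODE M21 on GRCm38) encodes the alpha subunit, which carries most of the acetylcholine binding site. It was at 4.50 and 4.47 RPKM in control muscle and at 33.5 and 45.1 RPKM in transgenic muscle. These values rest on 497, 479, 3829 and 5090 reads. The control libraries all but coincided, and the lower transgenic library was far above them. The ratio of the mean RPKM was 8.76, and the log2 fold change on the log2(RPKM + 1) scale was 2.86 (SE 0.19, 95% confidence interval 2.38 to 3.34, limma adjusted p = 0.0078, n = 2 per group), which ranked 29 from the top among the 10015 genes.

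Chrne (11448, chr11:70614883-70619216, reverse strand) encodes the epsilon subunit, which marks the adult receptor and is normally transcribed in the nuclei under the synapse. It was at 5.17 and 4.79 RPKM in control muscle and at 29.1 and 43.5 RPKM in transgenic muscle, from 308, 277, 1796 and 2652 reads. The groups were well apart, with transgenic library 2 the higher, as for Chrna1. The ratio of means was 7.30 and the log2 fold change 2.62 (SE 0.22, interval 2.05 to 3.18, limma adjusted p = 0.0108, n = 2 per group), which ranked 35.

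Chrng (11449, chr1:87204657-87212694, forward strand) encodes the gamma subunit, the fetal counterpart that epsilon replaces after birth. It was at 0.118 and 0.0610 RPKM in control muscle, from 8 and 4 reads, and at 1.82 and 3.06 RPKM in transgenic muscle, from 127 and 211 reads. The fetal subunit was thus barely read in control muscle and was read in both transgenic libraries, at a level still far under that of Chrne. The log2 fold change was 1.63 (SE 0.21, interval 1.10 to 2.16, limma adjusted p = 0.0203, n = 2 per group), a scale that understates the change of so low a gene, while the ratio of the mean RPKM was 27.2 and rests on 12 control reads in all. The call was lost with no filter on low values (limma adjusted p = 0.0629) and without control library 1 (0.0601).

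Chrnd (11447, chr1:87190607-87200070, forward strand) encodes the delta subunit, which borders an acetylcholine site in both the fetal and the adult receptor. It was at 0.296 and 0.305 RPKM in control muscle, from 26 reads in each, and at 3.65 and 4.13 RPKM in transgenic muscle, from 332 and 371 reads. The libraries of each group agreed closely and the groups were far apart. The ratio of means was 13.0 and the log2 fold change 1.91 (SE 0.14, interval 1.56 to 2.26, limma adjusted p = 0.0078, n = 2 per group). Chrnd and Chrng are neighbours on chromosome 1, both on the forward strand, with 4586 bases between them in GRCm38, and their annotated exons do not overlap.

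Chrnb1 (11443, chr11:69784036-69795943, reverse strand), the gene of the beta subunit, through which rapsyn binds the receptor, was at 13.3 and 10.1 RPKM in control muscle and at 20.6 and 25.3 RPKM in transgenic muscle. The groups did not overlap, but the control libraries differed more than those of Chrna1 or Chrne. Its ratio of means was 1.95 and its log2 fold change 0.92 (SE 0.20, interval 0.41 to 1.42, limma adjusted p = 0.0592, n = 2 per group). It fell short of the threshold. With Thbs1 left out of the library totals, where 1458 of 10014 tested genes were called higher, it passed (log2 fold change 1.11, limma adjusted p = 0.0317). It also passed at a threshold of 0.1. Its interval ends below where those of Chrna1 and Chrne begin, but the difference between subunits was not itself tested.

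Without control library 2 the calls of Chrna1, Chrnd, Chrne and Chrng were lost in limma, as were nearly all calls among the tested genes. The log2 fold changes of these 4 genes were then 2.86, 1.91, 2.57 and 1.60. That fit leaves a lone control library, whose scatter is assumed to be that of the transgenic group.

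**Figure D1:**
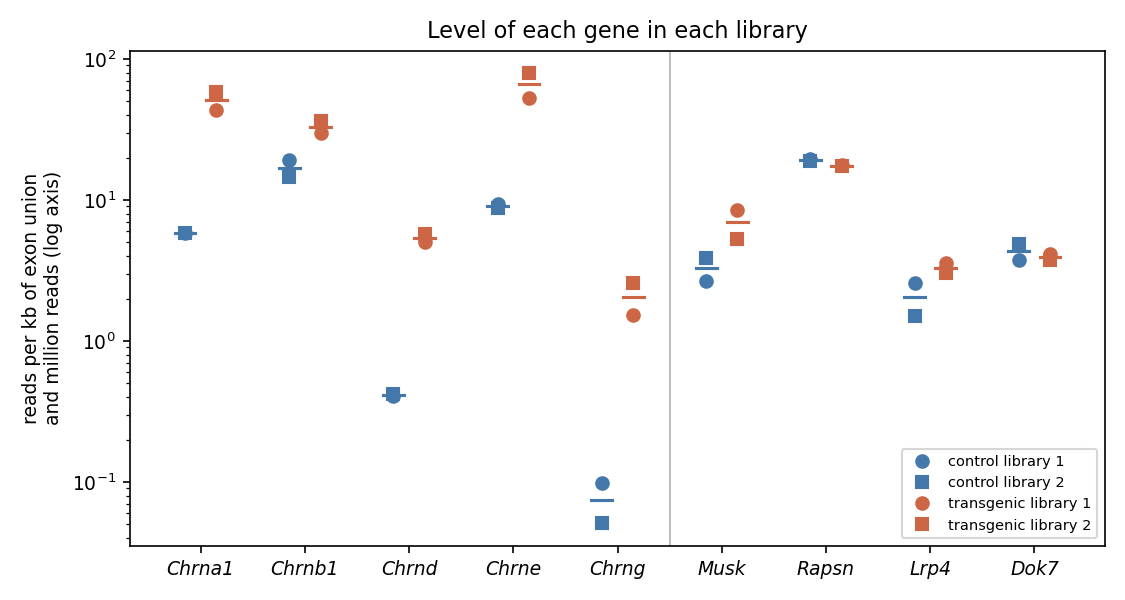
Level of the 9 genes in each library, in RPKM recomputed on the GENCODE exon union length, on a log axis. Circles are library 1 and squares library 2 of each group, and bars are group means of 2 libraries. The transgenic libraries lie above the controls for all 5 subunits, while Rapsn lies at 19.5 and 19.0 in controls and 17.7 and 17.4 in transgenic muscle.

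None of the 4 organizer genes was called. Rapsn (19400, chr2:91035620-91045729, forward strand), the gene of rapsyn, was at 12.3 and 12.0 RPKM in control muscle and at 11.1 and 10.9 RPKM in transgenic muscle. The libraries agreed closely within each group and the groups did not overlap, with the transgenic pair slightly lower, as for 19.7% of the tested genes. Its log2 fold change was -0.13 (SE 0.14, interval -0.48 to 0.22, limma adjusted p = 0.604, n = 2 per group), and it turned to 0.06 with Thbs1 left out of the library totals. The interval does not reach the change of any of the 4 subunits called. Its exons share 4 bases with Gm13778 on the other strand, and the sources used here do not give whether the libraries keep strand.

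Dok7 (231134, chr5:35056766-35087839, forward strand), the adaptor that activates MuSK from inside the fibre, was at 3.85 and 4.94 RPKM in control muscle and at 4.24 and 3.81 RPKM in transgenic muscle. The groups overlapped. Its log2 fold change was -0.10 (SE 0.17, interval -0.52 to 0.32, limma adjusted p = 0.752, n = 2 per group), which turned to 0.07 with Thbs1 left out of the library totals and to 0.05 without control library 2.

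Lrp4 (228357, chr2:91457511-91513779, forward strand), the agrin receptor, was at 1.46 and 0.848 RPKM in control muscle and at 2.03 and 1.73 RPKM in transgenic muscle. The transgenic libraries were higher, but the gap between the groups was smaller than that between the controls. The log2 fold change was 0.43 (SE 0.19, interval -0.05 to 0.91, limma adjusted p = 0.215, n = 2 per group).

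Musk (18198, chr4:58285960-58374303, forward strand), the kinase at the centre of the pathway, was at 0.304 and 0.443 RPKM in control muscle and at 0.973 and 0.607 RPKM in transgenic muscle, and so did not enter the test. It was nevertheless well read, with 195, 276, 646 and 398 reads, and the ratio of its mean RPKM was 2.11, slightly above the 1.95 of Chrnb1. The low RPKM goes with the gene model behind it, since the deposited values imply a length of 33104 bases for Musk against 3776 bases of annotated exon in GENCODE M21, 8.77 times as long. For the other 8 genes that ratio lay between 0.837 and 1.82, and its median over 16596 genes was 1.23. Tested on recovered reads with limma-voom, a fit added after the values were seen in which 4.67% of genes were called higher and 2.95% lower, Musk had a log2 fold change of 0.92 (SE 0.30, interval 0.21 to 1.63, limma adjusted p = 0.11, n = 2 per group). In that fit the interval stayed above 0 while the adjusted p missed the threshold, and the same 4 subunits passed, with log2 fold changes of 2.96 for Chrna1, 3.51 for Chrnd, 2.68 for Chrne and 4.48 for Chrng.

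**Figure D2:**
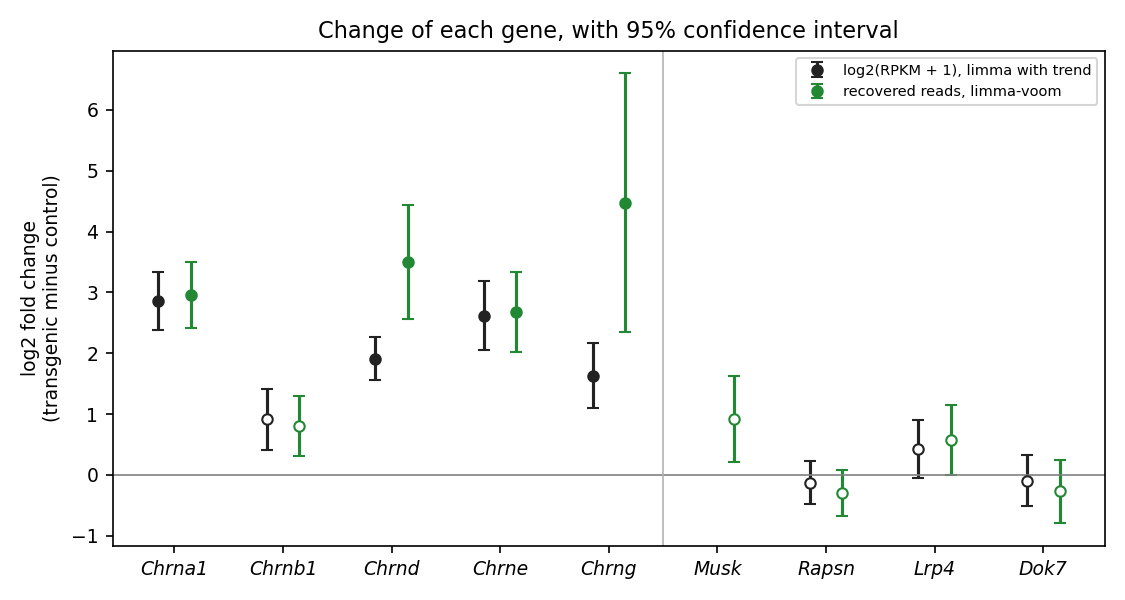
Log2 fold change (transgenic minus control) of each gene with its 95% confidence interval, from log2(RPKM + 1) with limma and from recovered reads with limma-voom. Filled points passed an adjusted p of 0.05. Musk has a value only on reads, at 0.92, and the intervals of Rapsn, at -0.48 to 0.22 on log2(RPKM + 1), and of Dok7 span 0 in both fits.

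The stretch before the start of a gene is where the muscle factors that bind E-boxes (CANNTG), among them MyoD and myogenin, are known to act on receptor genes, and the N-box (CCGGAA) is a site of Ets factors known for synapse-specific transcription. The 250 bases before the RefSeq start in GRCm38.p6 were searched on both strands, with CAGCTG counted as an E-box of its own kind as well. RefSeq promoters were matched for 6 of the 9 genes: Chrna1, Chrnb1, Chrne, Chrng, Musk and Dok7. The 3 called subunits among them are shown beside Chrnb1, which was not called, each read 5′ to 3′ on the gene's own strand and ending at the base before the start, with E-boxes and N-boxes in capitals. Their positions are chr2:73580339-73580588 on the reverse strand, chr11:70619195-70619444 on the reverse strand, chr1:87205561-87205810 on the forward strand and chr11:69795938-69796187 on the reverse strand.
Chrna1: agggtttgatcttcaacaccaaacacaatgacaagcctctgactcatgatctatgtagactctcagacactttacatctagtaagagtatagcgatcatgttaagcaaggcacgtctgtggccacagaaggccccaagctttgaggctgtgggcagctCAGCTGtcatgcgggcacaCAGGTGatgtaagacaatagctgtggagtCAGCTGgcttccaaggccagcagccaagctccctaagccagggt
Chrne: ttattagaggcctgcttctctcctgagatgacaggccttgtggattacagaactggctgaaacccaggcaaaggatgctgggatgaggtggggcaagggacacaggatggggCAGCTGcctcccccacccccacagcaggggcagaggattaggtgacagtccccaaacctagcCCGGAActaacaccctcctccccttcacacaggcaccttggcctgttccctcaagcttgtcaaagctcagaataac
Chrng: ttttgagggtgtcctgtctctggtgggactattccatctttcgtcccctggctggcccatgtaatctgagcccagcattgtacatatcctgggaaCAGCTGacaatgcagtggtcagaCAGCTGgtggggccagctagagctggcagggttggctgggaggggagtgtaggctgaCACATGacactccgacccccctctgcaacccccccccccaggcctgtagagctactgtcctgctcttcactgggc
Chrnb1: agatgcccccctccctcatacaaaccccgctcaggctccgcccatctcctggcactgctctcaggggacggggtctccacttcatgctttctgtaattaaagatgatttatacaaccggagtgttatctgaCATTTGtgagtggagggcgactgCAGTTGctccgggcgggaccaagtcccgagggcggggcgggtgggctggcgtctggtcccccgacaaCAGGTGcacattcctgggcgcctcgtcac

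Chrna1 holds 3 E-boxes, which begin 92, 73 and 44 bases before the start, and 2 of them read CAGCTG. Chrng also holds 3, beginning 155, 132 and 75 bases before the start, with 2 that read CAGCTG. This window lies inside Chrng as placed by GENCODE M21, which begins at 87204657, so its positions hold for the RefSeq start only. Of the other windows shown, those of Chrne and Chrnb1 reach slightly into the GENCODE gene. Chrne holds 1 E-box, a CAGCTG beginning 138 bases before the start, and 1 N-box, beginning 76 bases before it.

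Chrnb1 holds 3 E-boxes, none of them CAGCTG. Musk holds 3, of which 1 reads CAGCTG. One of the windows of Dok7 holds 1 and the other none. Of all 32851 promoter windows of this length, 66.2% hold at least 1 E-box, 12.2% at least 3, 13.0% a CAGCTG, 1.26% at least 2 of these, and 12.0% an N-box. These are matches of letters only.

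Levels of different genes were set side by side per kilobase of annotated exon, which avoids the long gene model of Musk. On this scale the order in control muscle was Rapsn at 19.3 ± 0.336 (SD, n = 2), Chrnb1 at 17.0 ± 3.29, Chrne at 9.06 ± 0.490, Chrna1 at 5.83 ± 0.0300 and Dok7 at 4.31 ± 0.757. Below them came Musk at 3.27 ± 0.863, Lrp4 at 2.04 ± 0.765, Chrnd at 0.414 ± 0.00867 and Chrng at 0.0751 ± 0.0340. The libraries of Rapsn and Chrnb1 overlapped, as did those of Dok7 and Musk, so neither pair is ordered.

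In transgenic muscle the order on that scale became Chrne at 66.1 ± 18.5 (SD, n = 2), Chrna1 at 51.1 ± 10.6, Chrnb1 at 33.2 ± 4.81 and Rapsn at 17.5 ± 0.205. Then came Musk at 6.93 ± 2.27, Chrnd at 5.37 ± 0.467, Dok7 at 3.95 ± 0.298, Lrp4 at 3.32 ± 0.374 and Chrng at 2.04 ± 0.733. Chrne and Chrna1 overlapped, and so did Musk and Chrnd. Chrne, Chrna1 and Chrnb1 lay above Rapsn in both transgenic libraries, while Chrnd and Chrng stayed below it.

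The make-up of the subunit pool differed with its size. Summed over the 5 subunits, the level per kilobase of exon was 35.0 and 29.6 in the controls and 133 and 183 in the transgenic libraries. Chrnb1 made up 55.0% and 49.4% of it in the controls and 22.4% and 20.0% in the transgenic libraries, while Chrna1 went from 16.7% and 19.6% to 32.8% and 32.1%. Chrne held 26.8% and 29.4% and then 39.9% and 43.4%.

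The ratio of Chrna1 to Chrnb1 was 0.303 and 0.397 in control and 1.46 and 1.60 in transgenic muscle. In a mature receptor a pair of alpha subunits stands beside a single beta. The fetal share of the gamma and epsilon pair, Chrng over both, was 1.04% and 0.583% in the controls and 2.79% and 3.13% in the transgenic libraries. Epsilon transcripts therefore outnumbered gamma transcripts in all 4 libraries on this scale. The size of the fetal share depends on the gene lengths used. The deposited gene model was 0.837 times the exon union for Chrng and 1.82 times for Chrne. On the deposited RPKM, the scale first planned for this ratio, the share is therefore larger in all 4 libraries, with epsilon still ahead. The summed subunit level over Rapsn was 1.80 and 1.56 in the controls and 7.52 and 10.5 in the transgenic libraries. None of these ratios was tested. An exact permutation test of 2 libraries against 2 cannot give a two-sided p below 0.333.

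**Figure D3:**
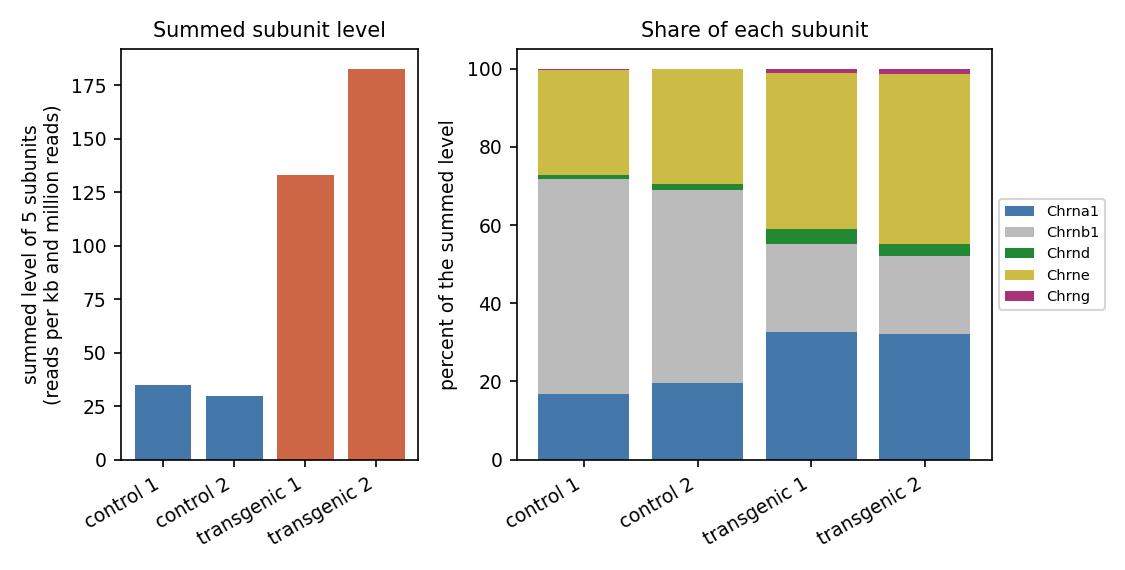
Left, summed level of the 5 receptor subunits in each library, in RPKM recomputed on the exon union length. Right, the percent of that sum held by each subunit; Chrnb1 holds 55.0% and 49.4% in controls and 22.4% and 20.0% in transgenic muscle.

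The transgenic libraries were compared with each other on library totals, 1 library against 1 and without a test. Transgenic library 2 exceeded library 1 for all 5 subunits, by a ratio of 1.35 for Chrna1, 1.49 for Chrne, 1.68 for Chrng, 1.23 for Chrnb1 and 1.13 for Chrnd. On that scale it lay below library 1 for the organizers, with ratios of 0.624 for Musk, 0.852 for Lrp4, 0.899 for Dok7 and 0.984 for Rapsn. Those of Dok7 and Rapsn are too near 1 to be ordered. Rapsn had 638 and 620 reads, and Thbs1 took 12.0% of the reads in library 1 and 14.4% in library 2. The size factors behind the deposited base means were 1.17 and 1.03. How many of all tested genes were higher in library 2 was not counted. The controls showed no such split, since control library 2 was below library 1 for 4 of the 5 subunits and for Rapsn and Lrp4.

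Other genes of the synapse were taken from lists written with earlier results of these data known. Outside the 9 genes the lists held 124 genes, of which 83 were tested, 14 rose and 3 fell, that is 16.9% and 3.61% beside the 6.25% and 1.22% of all tested genes. Of 18 tested agrin and MuSK signalling partners 1 rose, with a median log2 fold change of 0.09 beside 0.10 for all tested genes. It was Cttn, the actin-binding protein cortactin, which went from 1.91 and 1.59 to 4.30 and 4.70 RPKM. Agrn itself was at 2.53 and 1.42 RPKM in control muscle and at 2.54 and 1.86 RPKM in transgenic muscle, and these overlapped.

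In the scaffold and cytoskeleton list 0 of 13 tested genes rose and 2 fell, with a median of -0.08. They were Sntb1, a syntrophin, from 1.42 and 1.18 to 0.463 and 0.281 RPKM, and Kcnc1, a potassium channel, from 10.1 and 9.49 to 4.70 and 4.31 RPKM. The call of Sntb1 (limma adjusted p = 0.0491) was lost without any 1 of the libraries, and so was that of Kcnc1 (0.0261). Sntb1 also lost it with a pseudocount of 0.1 and with a filter of 1 RPKM on average in controls. Utrn, the synaptic relative of dystrophin, had a log2 fold change of 0.60 (SE 0.18, limma adjusted p = 0.107, n = 2 per group).

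In the synaptic basal lamina list 2 of 11 tested genes rose and 1 fell, with a median log2 fold change of 0.41. Colq, the collagen tail that fixes acetylcholinesterase in the cleft, rose from 1.95 and 1.39 to 5.32 and 5.07 RPKM. Ache, the esterase itself, rose from 13.0 and 11.7 to 32.7 and 43.3 RPKM. Prima1, its membrane anchor, fell from 9.87 and 16.9 to 1.20 and 0.516 RPKM. The tail and the enzyme thus moved one way and the membrane anchor the other, with limma adjusted p of 0.022, 0.0193 and 0.014.

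Among neuregulin and synaptic transcription genes 2 of 5 tested rose and 0 fell, with a median log2 fold change of 0.63 and all 5 values above 0. Etv5, an Ets factor needed for synaptic gene expression in mouse muscle, rose from 3.97 and 4.10 to 10.8 and 9.08 RPKM. Prkar1a, a regulatory subunit of protein kinase A, rose from 40.1 and 34.5 to 97.8 and 88.7 RPKM. Gabpa, the Ets factor classically linked to the N-box, had values that overlapped between the groups, at 10.6 and 11.9 RPKM in control muscle and 12.5 and 11.2 RPKM in transgenic muscle.

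Among activity-dependent regulators of receptor genes 2 of 15 tested rose and 0 fell, with a median log2 fold change of 0.25. Myog, the gene of myogenin, which drives the subunit genes after denervation, rose from 4.30 and 3.30 to 9.87 and 16.4 RPKM (log2 fold change 1.53, SE 0.27, limma adjusted p = 0.0373, n = 2 per group). It no longer passed under median-of-ratios scaling, with the replicate number as a block, with no filter, and without control library 1 or 2. On recovered reads it missed the threshold with the filter of 1 RPKM in 2 libraries. It passed there with a filter of 10 reads in 2 libraries. Msc, an E-box repressor also called musculin, rose from 0.488 and 0.343 to 1.84 and 2.26 RPKM. Myod1 had values that overlapped, at 7.54 and 8.03 RPKM in control muscle and 7.21 and 13.4 RPKM in transgenic muscle.

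Of 11 tested genes known to rise after denervation, 6 rose and 0 fell, with a median log2 fold change of 0.97. Ncam1, the neural cell adhesion molecule, rose from 0.576 and 0.521 to 2.74 and 4.25 RPKM. Runx1, a transcription factor of denervated muscle, rose from 0.172 and 0.0922 to 1.09 and 1.36 RPKM. Gadd45a, a stress gene that responds to denervation, rose from 14.6 and 22.2 to 44.3 and 72.4 RPKM.

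The other genes of that list that rose were Sln, the calcium pump inhibitor sarcolipin, Nes, the intermediate filament nestin, and Cdkn1a, a cell cycle inhibitor, with log2 fold changes of 3.91, 1.94 and 2.38. Myh3 and Myh8, the embryonic and perinatal myosins, had log2 fold changes of 0.28 and -0.44 and did not pass. Msc, Ncam1 and Runx1 were below 1 RPKM in both controls and entered the test through their transgenic values. Without control library 2 the list genes named here as changed lost their calls, as did nearly all tested genes. Cdkn1a was the 1 that kept its call when low genes were not filtered out, where 135 of 17769 genes were called higher and 11 lower. The calls of Ache, Cttn, Etv5, Gadd45a, Msc, Ncam1 and Runx1 were also lost without control library 1. Gadd45a also lost its call with median-of-ratios scaling, with a pseudocount of 0.1 and with a filter of 1 RPKM on average in controls. Etv5 lost its call without transgenic library 1, and Cttn and Runx1 without transgenic library 2.

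**Figure D4:**
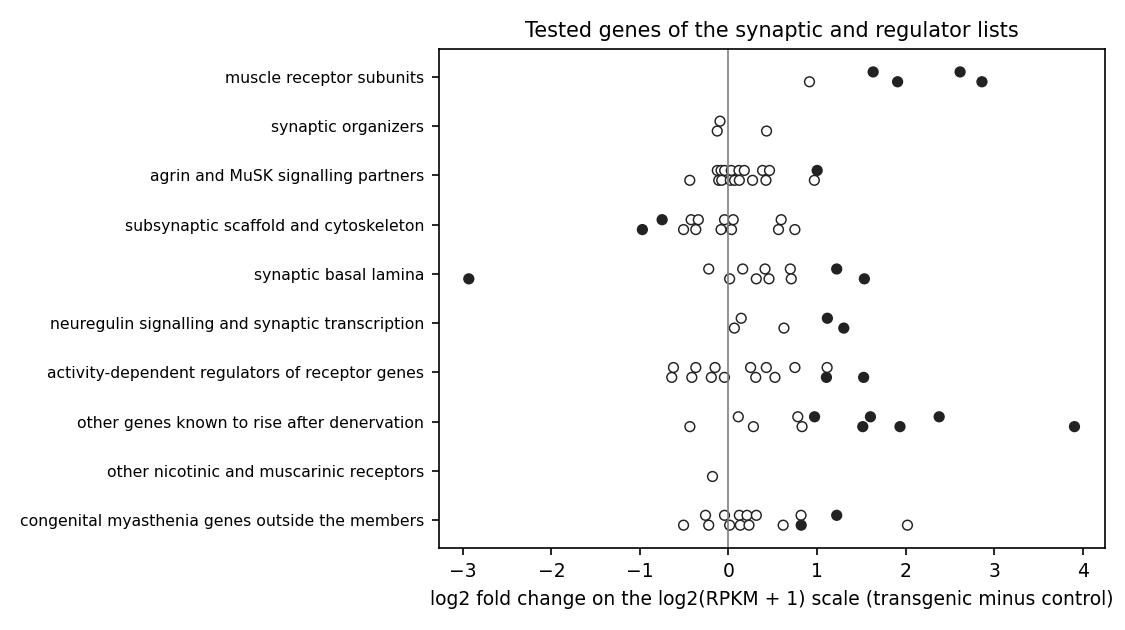
Log2 fold change (transgenic minus control, on the log2(RPKM + 1) scale) of the tested genes of each list, 1 point per gene; filled points passed an adjusted p of 0.05, and a gene on several lists is drawn in each. The 5 receptor subunits lie between 0.92 and 2.86, and Prima1 is the point farthest to the left.

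Of 16 neuronal and muscarinic acetylcholine receptor genes 1 was tested. It was Chrna10, at 2.45 and 2.12 RPKM in control muscle and 1.45 and 2.41 RPKM in transgenic muscle, and 6 were listed at 0 in all 4. The rest stayed below 1 RPKM in every library and so were not tested. Among these, Chrnb2, a neuronal subunit, had 5 reads in each control and 38 and 20 in the transgenic libraries. Chrm3, a muscarinic receptor, had 3 and 9 reads and then 13 in each. Both genes were thus higher in both transgenic libraries, on few reads, as were 38.4% of the tested genes. Chrna2, a neuronal subunit, went the other way, with 17 and 56 reads in the controls and 15 and 1 in the transgenic libraries. Chrnb2, Chrm3 and Chrna2 were named after their values were seen. Of 15 tested congenital myasthenia genes outside the 9, 2 rose and 0 fell: Colq, and Gmppb, an enzyme of mannose activation for glycosylation named after its values were seen, which went from 4.90 and 4.64 to 9.80 and 8.62 RPKM and lost its call without any 1 of the libraries and with the replicate block.

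The genes closest to Chrna1 in pattern were sought over the 4 libraries by the Euclidean distance of log2(RPKM + 1) after subtracting the control mean. They were Cd74, the invariant chain of antigen presentation, at a distance of 0.288, Calr, the chaperone calreticulin, at 0.388, Uchl1, a ubiquitin hydrolase, at 0.398, Mgp, matrix Gla protein, at 0.431, and Gsta1, a glutathione transferase, at 0.437. Cd74 went from 6.78 and 6.89 to 41.2 and 57.2 RPKM. With 4 libraries such a likeness is mainly a step of similar size between the groups.

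Other cell types and the fibres themselves also moved between these libraries. Of 9 macrophage markers, all tested, 8 rose, and their summed level went from 83.2 and 53.2 to 267 and 242 RPKM. The 12 fibre markers summed to 44488 and 45637 RPKM in control muscle and 26094 and 30334 RPKM in transgenic muscle, with 11 log2 fold changes below 0 and 1 gene past the test. Schwann cell markers, which would follow the nerve, summed to 52.6 and 48.7 RPKM in control muscle and 120 and 40.2 RPKM in transgenic muscle, with 0 of 5 tested past the threshold in limma. Sox10, the defining one, was below 1 RPKM in every library.

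Among satellite cell and myoblast markers 3 of 5 tested rose, Myog, Sdc4 and Itga7, and the sum went from 37.7 and 33.0 to 72.9 and 85.7 RPKM. Itga7 was the largest part of that sum, at 12.8 and 9.27 RPKM in control and 35.5 and 34.9 RPKM in transgenic muscle. Pax7, which defines satellite cells, was at 0.285 RPKM in both controls and at 0.121 and 0.131 RPKM in transgenic muscle. Adipocyte markers summed to 2046 RPKM in transgenic library 1 and 498 RPKM in library 2, against 1027 and 1026 RPKM in control muscle. Car3 was the largest part of that sum, at 808 and 756 RPKM in control and 951 and 354 RPKM in transgenic muscle. Adipoq, a small part of it, was at 3.21 and 2.74 RPKM in control muscle. It stood at 31.7 RPKM in transgenic library 1 and 3.14 RPKM in library 2, so the sum and this marker differ. For fibro-adipogenic markers 2 of 10 tested rose, with sums of 338 and 261 RPKM in control muscle and 408 and 326 RPKM in transgenic muscle. Endothelial markers had 0 of 10 past the threshold in limma and sums of 60.4 and 46.8 RPKM and then 67.5 and 41.9 RPKM. In transgenic library 2, where the subunits were higher, the Schwann, adipocyte, fibro-adipogenic, endothelial and macrophage sums were lower than in library 1. The sums of fibre markers and of satellite cell and myoblast markers were higher there. Such a comparison sets 1 library against 1. The part of these cell types in the receptor transcripts was not tested.

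The authors' deposited table, which calls 5.55% of 17769 genes higher and 3.64% lower at an adjusted p under 0.1, puts the same 4 subunits higher in transgenic muscle, with adjusted p of 1.58e-05 for Chrna1, 3.85e-15 for Chrnd, 0.0028 for Chrne and 0.000638 for Chrng. The authors' deposited table gives 0.121 for Chrnb1, 0.229 for Musk, 0.378 for Lrp4, 0.704 for Rapsn and 0.782 for Dok7. It rests on the same 4 libraries and is no independent evidence.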

How the data were processed

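RNA sequencing of 4 quadriceps libraries was used. Per the submitters' processing notes, bcl2fastq, TopHat and edgeR were used with build mm10; versions, the gene annotation and strandedness are not given in the sources used here. What the authors deposited for each library is RPKM. The deposited base means are signal values, reads divided by a size factor and averaged by group. The authors' deposited table also holds a ratio of base means, control over transgenic, and a p-value with its adjusted p-value. The base means and RPKM together fix whole reads (tolerance 1e-06 of a read), which gave depth and gene model lengths.

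The test covered genes reaching 1 RPKM in 2 or more libraries, on log2(RPKM + 1) with limma 3.58.1 and a mean-variance trend in R 4.3.3. It was two-sided, without covariates, with Benjamini-Hochberg adjustment over all genes tested and a threshold of 0.05. Groups and replicate numbers come from the sample titles. Exon unions and places are from GENCODE M21 on GRCm38. The test was checked on simulated data. The simulation placed no changes in genes as low in controls as Chrnd and Chrng. It also did not model the share of transgenic reads taken by Thbs1. Tables and figures used Python 3.11.15, pandas 2.3.3 and matplotlib 3.10.9.

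The 9 genes and all lists were chosen with earlier results of these data known. Named are the 9 genes, every called gene of the synaptic and regulator lists, up to 2 genes of a list without a call, the 5 nearest in pattern to Chrna1, Thbs1 and defining markers of cell types (Acta1, Sox10, Pax7). Agrn, Utrn, Gabpa, Myod1, Myh3, Myh8, Gmppb, Sdc4, Itga7, Chrnb2, Chrm3, Chrna2, Adipoq and Car3 fall outside that rule. Counting error apart, 2 libraries per group limit the precision.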

Additional observations from a re-analysis of the deposited data

How the results depend on the processing

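The number of the 9 genes called higher was 4. It was 2 when genes needed 1 RPKM on average in controls, which removes Chrnd and Chrng from the test. With that filter 336 of 9291 genes were called higher and 78 lower. In the fits with all 4 libraries 0 of the 9 were lower, also at an unadjusted p under 0.05 in limma or limma-voom. With 1 library left out the number called among the 9 genes stayed or fell. Calls over all tested genes fell in each such fit, to nearly none without control library 2. The lone library of a group is then assumed to vary like the other group. With the replicate number as a block 4 were called, beside 497 higher and 64 lower of 10015 tested genes. The deviations of libraries with equal numbers correlated at 0.0742 over the tested genes. A single difference in each group cannot tell whether libraries of equal number share a batch. The list genes outside the 9 gave 14 higher and 3 lower. They gave 13 and 3 with the replicate block, and 23 higher with Thbs1 left out of library totals. By limma-voom on recovered reads 6 were lower with either filter. All genes gave 442 lower of 10015 there with the RPKM filter and 416 of 14087 with the filter on reads. With no filter the list genes gave 1 higher and 0 lower, beside 135 and 11 of all 17769 genes. At an adjusted p under 0.1 they gave 22 and 5. With 1 library left out their number called did not rise in either direction. Of all 10014 genes tested with Thbs1 left out of library totals, 1458 were called higher. In that fit log2 fold changes reversed for Rapsn (0.0617) and Dok7 (0.0701). The log2 fold change of Dok7 ran from -0.242 to 0.0510 with 1 control library left out. Those of Chrna1 lay between 2.65 and 3.09 over 14 alternatives and those of Chrne between 2.33 and 2.90. Among the alternatives, the changed RPKM filters, the replicate block and the threshold of 0.1 leave log2 fold changes as they are by construction. Those of Chrnd (1.82 to 3.51) and Chrng (1.37 to 4.48) moved most, and both are low in controls. The test on recovered reads with at least 10 reads in 2 libraries and the exon union length were added after seeing the data. DESeq2 and edgeR were not run. The recovered reads were tested with limma-voom alone. Depth limits Chrng, with 12 reads over both controls.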
